A study of Homo sapiens with 12 samples.

Results

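The genes described here encode the mitochondrial respiratory chain and ATP synthase, from both the nuclear and the mitochondrial genome. They were chosen by symbol, as protein-coding genes whose name begins with NDUF, UQCR, ATP5 or COX and a digit, plus SDHA, SDHB, SDHC, SDHD, CYC1 and the 13 protein genes of mitochondrial DNA, with no use of measured values. This gave 121 of the 57820 gene identifiers in the count tables, 108 of them nuclear. The nuclear ones comprise 78 subunits, 17 assembly factors, 7 tissue isoforms, 2 readthrough genes and 4 others (COX7A2L, ATP5IF1, UQCRHL and ATP5MGL). The cells were AsPC-1, a long-established line from a human pancreatic ductal adenocarcinoma, and 12 libraries of total RNA depleted of rRNA were sequenced. The sgBACH1 cells had BACH1 disrupted by Cas9 and a guide delivered with the lentiCRISPR v2 vector, and both they and the sgCont cells were selected in 10 µg/ml puromycin. A BACH1 siRNA was transfected into the siBACH1 cells 24 h before harvest, with siCont as the matching control. Each of the 4 groups has 3 libraries. The labels leave unsaid whether replicates came from different cultures and whether the sgBACH1 cells are 1 clone, so p-values measure only the spread among libraries, some or all of it possibly technical. In bulk RNA, fewer cells with a transcript and less of it per cell cannot be told apart.

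The respiratory chain passes electrons from NADH through complex I, or from succinate through complex II, to ubiquinone, then through complex III and cytochrome c to complex IV, which reduces oxygen. Complexes I, III and IV pump protons across the inner mitochondrial membrane, and complex V (ATP synthase) uses the return flow to make ATP. Complex II is encoded wholly in the nucleus, whereas complexes I, III, IV and V combine nuclear subunits with subunits encoded in mitochondrial DNA, whose long transcripts are cut into separate mRNAs at the tRNAs between them. BACH1 is a heme-binding transcriptional repressor of antioxidant and heme-breakdown genes, and BACH1 has been linked elsewhere to repression of electron transport chain genes in breast cancer cells.

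BACH1 itself had 218, 198 and 185 CPM in sgBACH1, against 268, 294 and 276 CPM in sgCont, where CPM are the counts after TMM scaling to a common library size within each experiment. In the other experiment it had 24.9, 27.7 and 24.7 CPM in siBACH1, against 197, 294 and 197 CPM in siCont. The groups were separate in both, with log2 fold changes of -0.48 ± 0.08 (SE) in the knockout and -3.15 ± 0.17 after siRNA (edgeR adjusted p = 4.48e-05 and 4.09e-06). A guide changes the DNA and need not remove the transcript; HMOX1, the heme oxygenase that BACH1 represses, averaged 474 ± 32.5 CPM in sgBACH1 against 8.99 ± 2.48 in sgCont, and 174 ± 7.12 CPM in siBACH1 against 6.63 ± 0.568 in siCont (SD, n = 3 each). Libraries held 13099706 to 21478886 counts. The ductal markers KRT8, KRT18 and KRT19 averaged at least 2015 CPM in every group, while KRT7 reached only 11.0 and CFTR 0.112. Of 27 markers of acinar, endocrine, stromal, blood, vessel and muscle cells, 25 stayed at or below 0.771 CPM in every group mean; the others were CD14, at most 3.41, and LYZ, at 733 in sgBACH1 and 59.4 in sgCont. Replicate 2 of siCont stood apart from its group: the chi-square of its counts per degree of freedom was 30.5 and 35.8 against the other siCont libraries, which differed from each other by 8.89.

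Messenger RNA of the 13 mitochondrial genes made up 0.505% to 0.621% of counts in sgBACH1 and 0.441% to 0.610% in sgCont. The shares were 0.571% to 0.620% in siBACH1 and 0.514% to 0.646% in siCont. The 78 nuclear subunits together took 0.922% to 0.954% in sgBACH1 and 0.906% to 0.968% in sgCont, and 0.962% to 1.01% in siBACH1 and 0.944% to 1.05% in siCont. Groups overlapped in all 4 pairs of these totals, although each share is known to within 0.0052 percentage points by its 95% Wilson interval, which covers counting error only. Summed by complex and genome, 3 of 18 pairs of groups were separate, all of nuclear subunits and given with no test. The complex IV sum was 1876 to 1979 CPM in sgBACH1, against 1752 to 1872 CPM in sgCont, and 2038 to 2087 CPM in siBACH1, against 2110 to 2283 CPM in siCont. The complex I sum was 2189 to 2297 CPM in siBACH1, against 2320 to 2465 CPM in siCont. The complex IV sum thus stood higher in sgBACH1 and lower in siBACH1 than in the matching control, and that of complex I stood lower in siBACH1. The complex IV sum includes the X-linked COX7B, which rose by 1.03 on the log2 scale in the knockout. That rise is wider in CPM than the gap between the highest sgCont sum, 1872, and the lowest sgBACH1 sum, 1876. The sum was not taken without COX7B, so it does not show a rise of the other subunits. The complex I sum includes NDUFA8 and NDUFB2, with log2 fold changes of -2.08 and -0.69 after siRNA, and was not taken without them. Separate groups were common among single genes, at 5283 of 14469 tested in the knockout and 6200 of 14591 after siRNA. These sums do not show that a whole complex changed. Per kilobase of annotated exon, the median mitochondrial gene stood at 294 CPM in sgBACH1 and 293 in sgCont, and the median nuclear subunit at 35.0 and 32.4; the corresponding values were 436 in siBACH1 and 405 in siCont for mitochondrial genes, and 35.5 and 37.2 for nuclear subunits. MT-CO1 and MT-CO2, catalytic subunits of complex IV, were the 2 highest mitochondrial genes per kilobase in sgBACH1 and siBACH1. The 2 highest were MT-CO1 and MT-CO3 in sgCont and MT-CO2 and MT-CO3 in siCont, an order that was not tested. COX8A and ATP5F1B were the 2 highest nuclear subunits in every group. MT-ND6, the protein gene of the other mitochondrial DNA strand, was the lowest mitochondrial gene in every group, at 5.71 CPM per kilobase in sgBACH1 and 5.24 in sgCont, and 13.2 in siBACH1 and 12.6 in siCont. The assembly factors had medians of 7.18 CPM per kilobase in sgBACH1, 6.22 in sgCont, 6.83 in siBACH1 and 8.54 in siCont.

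Calls did not cover the chain as a block in either experiment. In the knockout 111 of the 121 genes had enough counts to be tested, and 12 of them were called higher and 11 lower (edgeR quasi-likelihood test, adjusted p under 0.05). Among all 14469 genes tested there, 11.3% were called higher and 12.3% lower. In the siRNA experiment 113 were tested, of which 1 was called higher and 13 lower, where 10.9% and 13.0% of all 14591 tested genes were called. As shares of the members tested these are 10.8% higher and 9.91% lower in the knockout, near the background, and 0.885% higher and 11.5% lower after siRNA, where rises were fewer than the background. Without siCont replicate 2 the siRNA count was 5 higher and 23 lower, and 5121 genes in all were called in place of 3481. Medians by class stayed close to 0: the nuclear subunits had a median log2 fold change of 0.06 in the knockout and -0.09 after siRNA, and the mitochondrial genes had 0.08 and 0.04, where the median over all tested genes was 0.006 and 0.005. Of the nuclear subunits, 48 lay above 0 and 29 below in the knockout, and 26 above and 52 below after siRNA. For all tested genes these were 7321 and 7148, and 7363 and 7228. Whether the nuclear subunits share a small shift was not tested. The mitochondrial median turned to -0.04 in the knockout without sgBACH1 replicate 1 and to -0.02 without sgCont replicate 2, and to -0.01 in the siRNA experiment when genes with certain 3′ UTR letters (described below) were left out of the fit.

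**Figure D1:**
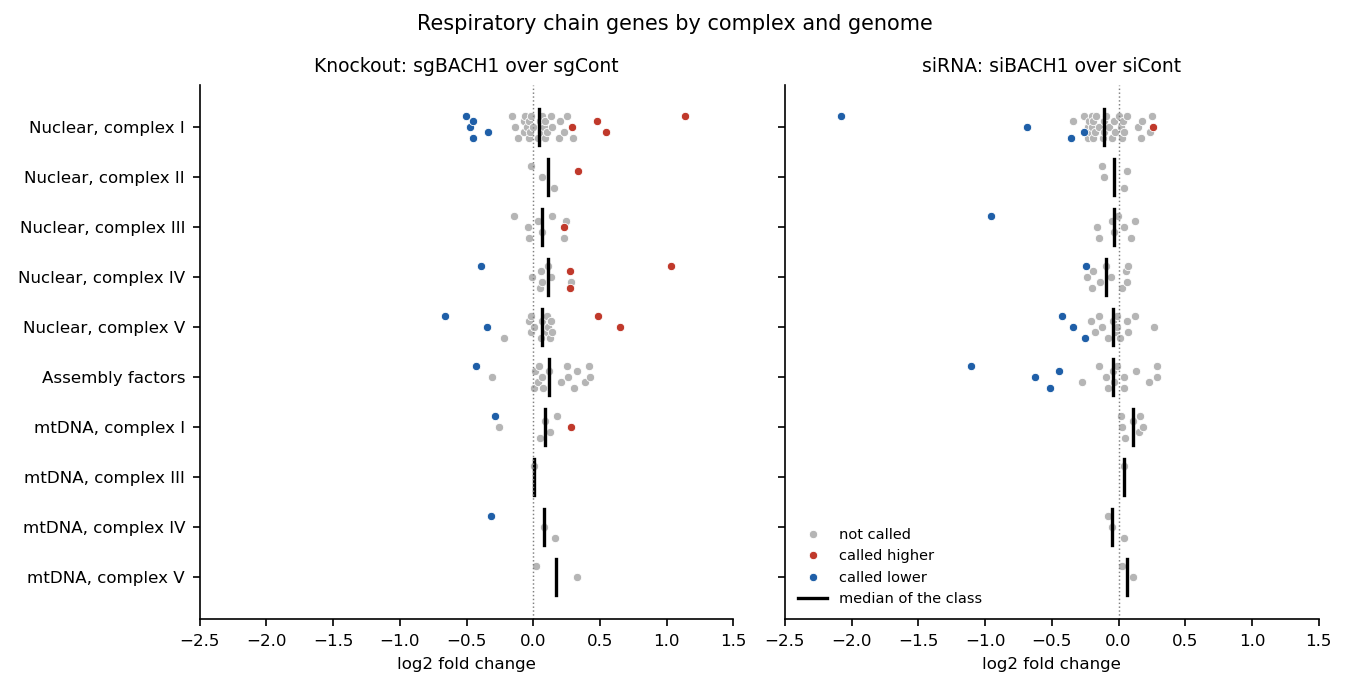
Log2 fold change of each tested gene (x axis) by complex and genome (rows), in the knockout on the left and after siRNA on the right; red and blue points were called by edgeR, grey points were not, and black bars are class medians. All class medians lie between -0.11 and 0.17, and called genes sit on both sides of 0 in the knockout and almost all to the left after siRNA.

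Complex I, the NADH dehydrogenase, had 4 of 36 tested nuclear subunits higher and 5 lower in the knockout. These are 11.1% and 13.9%, beside 11.3% and 12.3% of all genes tested. NDUFA1, an accessory subunit encoded on the X chromosome, had 48.1, 35.7 and 41.7 CPM in sgBACH1, against 14.2, 21.5 and 21.6 CPM in sgCont. Every sgBACH1 library was above every sgCont library, and the 2.2-fold rise was the largest rise called among these genes (log2 1.14 ± 0.16, edgeR adjusted p = 1.05e-05). NDUFB3, another accessory subunit of the membrane arm, had 50.3, 59.2 and 49.2 CPM in sgBACH1, against 33.5, 38.1 and 37.2 CPM in sgCont. Its groups were also separate (log2 0.54 ± 0.12, edgeR adjusted p = 0.00152). The accessory subunit NDUFA3 rose by 0.48 and NDUFB2 by 0.29 on the log2 scale (edgeR adjusted p = 0.0114 and 0.0104). The call of NDUFA3 was lost without sgBACH1 replicate 1 (edgeR adjusted p = 0.0616), and that of NDUFB2 without sgBACH1 replicate 2 (edgeR adjusted p = 0.12).

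Falls in complex I included 2 of its 7 nuclear core subunits, the set that holds the flavin and the iron-sulfur clusters. This is 28.6% of a small set, beside 12.3% of all genes tested, and both genes lie in 1 stretch of chromosome 11 described below. NDUFS8, which holds iron-sulfur clusters near the quinone site, had 106, 125 and 124 CPM in sgBACH1, against 149, 149.6 and 193 CPM in sgCont. NDUFV1, which binds NADH and the flavin, had 163, 183 and 180.0 CPM in sgBACH1, against 204, 213 and 250.5 CPM in sgCont. Both had separate groups, with log2 fold changes of -0.47 ± 0.10 and -0.34 ± 0.08 (edgeR adjusted p = 0.000796 and 0.00384). The accessory subunits NDUFA12, NDUFB10 and NDUFB5 fell by 0.50, 0.45 and 0.45 on the log2 scale (edgeR adjusted p = 0.00841, 0.000637 and 0.00456). NDUFA12 lost its call without sgBACH1 replicate 3 or without sgCont replicate 2 (edgeR adjusted p = 0.0573 and 0.0617). Of 8 complex I assembly factors bearing the NDUFAF name, which help build the complex and do not stay in it, only NDUFAF3 was called: it had 59.3, 65.8 and 62.0 CPM in sgBACH1, against 75.3, 82.6 and 93.4 CPM in sgCont, with a log2 fold change of -0.43 ± 0.10 (edgeR adjusted p = 0.00308).

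Complexes II and III, which both deliver or take electrons at ubiquinone, had 1 called nuclear subunit each in the knockout, both higher. These are 25% of 4 and 11.1% of 9 tested, beside 11.3% of all genes tested. SDHC, which anchors succinate dehydrogenase in the membrane, had 75.6, 77.1 and 81.7 CPM in sgBACH1, against 59.4, 55.7 and 70.4 CPM in sgCont. UQCRQ, a small subunit of the cytochrome bc1 complex, had 208, 217 and 195 CPM in sgBACH1, against 172, 183 and 173 CPM in sgCont. Both sets of groups were separate, and the log2 fold changes were 0.34 ± 0.10 and 0.23 ± 0.08 (edgeR adjusted p = 0.0198 and 0.028). The call of SDHC was lost without any 1 of sgBACH1 replicates 1 to 3 and sgCont replicates 1 and 2, and that of UQCRQ without any 1 of sgBACH1 replicates 1 and 2 and sgCont replicates 1 and 3 (edgeR adjusted p of 0.0526 to 0.106 and of 0.059 to 0.163).

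Complex IV, cytochrome c oxidase, had 3 of 11 nuclear subunits higher and 1 lower in the knockout (27.3% and 9.09%, beside 11.3% and 12.3% of all genes tested). COX7B, a small X-linked subunit, had 147, 115 and 119.6 CPM in sgBACH1, against 51.9, 72.2 and 62.8 CPM in sgCont. The groups were well apart, at a log2 fold change of 1.03 ± 0.11 (edgeR adjusted p = 1.69e-07). COX4I1, the common isoform of the subunit through which ATP regulates the enzyme, had 231, 253 and 268 CPM in sgBACH1, against 302, 363 and 322 CPM in sgCont. It fell by 0.39 on the log2 scale with separate groups (edgeR adjusted p = 0.000604). COX6C and NDUFA4, which is a subunit of complex IV despite its symbol, each rose by 0.27 on the log2 scale (edgeR adjusted p = 0.0256 and 0.0149). COX6C lost its call without any 1 of sgBACH1 replicates 2 and 3 and sgCont replicates 1 and 3 (edgeR adjusted p of 0.0528 to 0.182), and NDUFA4 without any 1 of sgBACH1 replicates 1 and 2 and sgCont replicate 3 (edgeR adjusted p of 0.0546 to 0.157). None of the 9 complex IV assembly factors was called in the knockout.

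Complex V had 2 of 17 nuclear subunits higher and 2 lower in the knockout (11.8% each, beside 11.3% and 12.3% of all genes tested). ATP5MC2, one of 3 genes for the c-subunit of the membrane rotor, had 144, 126 and 138 CPM in sgBACH1, against 199, 206 and 239 CPM in sgCont. This 1.58-fold fall was the largest among respiratory chain genes there (log2 -0.66 ± 0.08, edgeR adjusted p = 2.03e-06), whereas the other c-subunit genes, which encode the same mature protein, had log2 fold changes of -0.22 for ATP5MC1 and 0.13 for ATP5MC3 and were not called. ATP5F1B, the catalytic beta subunit, had 869, 856 and 852 CPM in sgBACH1, against 1045, 1112 and 1115 CPM in sgCont. Its libraries were separate and tight within each group (log2 -0.34 ± 0.06, edgeR adjusted p = 0.000174). ATP5F1E, the epsilon subunit of the central stalk, had 236, 233 and 211 CPM in sgBACH1, against 143, 197 and 147 CPM in sgCont, a log2 rise of 0.48 ± 0.10 with separate groups (edgeR adjusted p = 0.000593). ATP5MF, a membrane subunit, had 57.0, 42.7 and 38.2 CPM in sgBACH1, against 26.2, 24.6 and 37.0 CPM in sgCont. The lowest sgBACH1 library of ATP5MF lay just above the highest sgCont library, and its call (log2 0.65 ± 0.16, edgeR adjusted p = 0.00413) was lost without sgBACH1 replicate 1 (edgeR adjusted p = 0.0832). ATP5IF1, the peptide that blocks ATP synthase from running backwards, was not called in the knockout or after siRNA, with log2 fold changes of 0.02 and -0.11.

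**Figure D2:**
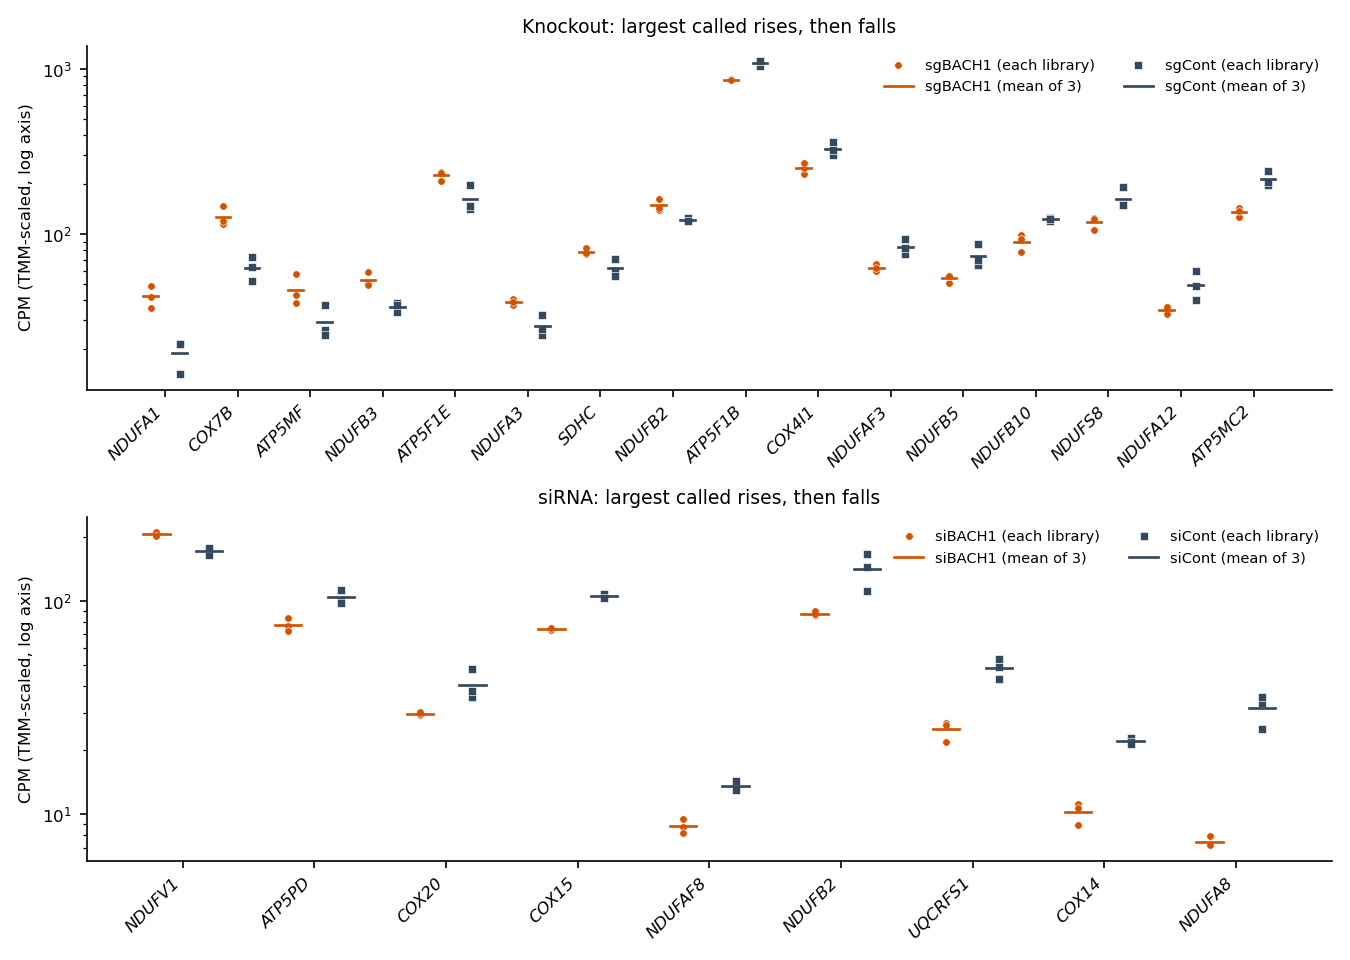
CPM in every library (points, log axis) and group means (bars) for the genes with the largest called rises and falls, in the knockout (top, sgBACH1 left of sgCont for each gene) and after siRNA (bottom, siBACH1 left of siCont). The 2 groups of every gene shown are separate, and NDUFA8 has the widest gap, from 7.19 to 7.88 CPM in siBACH1 against 25.2 to 35.5 in siCont.

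The knockout changes were read against the genes beside them, since whole stretches of some chromosomes differed between sgBACH1 and sgCont. Tested genes were divided along each chromosome into stretches of about 100, and 13 stretches had a median log2 fold change beyond 0.3 either way, on chromosomes 3, 12 and 16 (lower) and 19 and X (higher). They held 10 respiratory chain genes, 3 in raised stretches and 7 in lowered ones. All 3 in raised stretches were called higher, where 40% of all 580 tested genes of those stretches were. NDUFA1 and COX7B lie on X, where the other genes of their stretches had median log2 fold changes of 0.63 and 0.64. NDUFA3, on chromosome 19, rose by 0.48 where its neighbours' median was 0.46. Of the 7 in lowered stretches, 5 were called lower, where 45.4% of all 672 tested genes there were. NDUFB5 on chromosome 3 fell by 0.45 beside neighbours at -0.41. NDUFB10 and COX4I1 on chromosome 16 fell by 0.45 and 0.39 beside neighbours at -0.43 and -0.45, and ATP5F1B on chromosome 12 fell by 0.34, the size of its neighbours' median of -0.34. ATP5MC2, in the same stretch as ATP5F1B, fell by 0.66. The remaining 2, NDUFAB1 (the acyl carrier protein) and UQCRC2 (a core protein of complex III), both on chromosome 16 with neighbours at -0.35, had log2 fold changes of -0.07 and 0.03 and were not called. Outside these stretches 8 of 88 tested nuclear genes were called higher (9.09%) and 4 lower (4.55%). A fit that left out all genes of these stretches called 1334 of 13217 genes higher and 1421 lower. The neighbours of NDUFS8 and NDUFV1, on chromosome 11, stood at -0.16, those of NDUFA12 at -0.29 and those of ATP5F1E at 0.22. In that chromosome 11 stretch 27 of 98 tested genes were called lower and 4 higher. What part the stretches have in each gene's change was not tested.

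**Figure D3:**
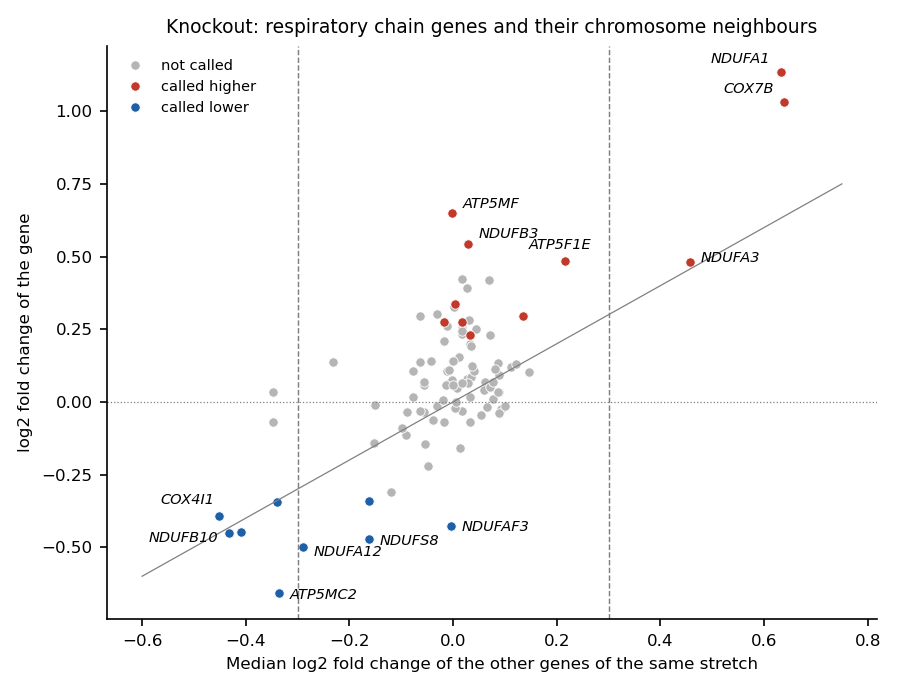
Knockout log2 fold change of 98 nuclear respiratory chain genes (y axis) against the median log2 fold change of the other tested genes of the same chromosome stretch (x axis); dashed lines mark -0.3 and 0.3, and the solid line marks equal values. NDUFA3, NDUFB5, NDUFB10, COX4I1 and ATP5F1B lie near the line of equal values, NDUFA1 and COX7B lie above it, and ATP5MF, NDUFB3 and NDUFAF3 changed where the neighbours' median was near 0.

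In the 4 groups together, NDUFA1 averaged 41.8 ± 6.19 CPM in sgBACH1 and 19.1 ± 4.23 in sgCont, and 53.5 ± 0.430 in siBACH1 and 61.1 ± 5.41 in siCont (SD, n = 3 each; the experiments were scaled separately). COX7B averaged 127 ± 17.3 CPM in sgBACH1 and 62.3 ± 10.2 in sgCont, and 165 ± 12.2 in siBACH1 and 189.8 ± 15.7 in siCont. For both X-linked genes sgCont was the lowest of the 4 groups, and it differed from the transfected groups by more than sgBACH1 did; this comparison crosses experiments and was not tested.

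After siRNA, the falls included a few of considerable size in complex I, complex III and the assembly of complex IV. The 4 genes that fell most each hold 1 or both of 2 short, overlapping sequences in their 3′ untranslated regions (UTRs), and the sites are given here to show what these genes have in common. The sequences do not separate the genes that fell from those that did not: 6 of the 13 called lower hold neither, and 13 of the 20 that hold one were not called. The letters, AACATTA and ACATTAA, came from an earlier look at these same data, so the match is a description and not independent support; no siRNA sequence was used here, and whether the siRNA shares these letters was not tested. The sites below come from GENCODE 29 transcripts on GRCh38, read 5′ to 3′ on the strand of the gene, with the matching letters in capitals and up to 10 bases either side.
NDUFA8: cgggatcacaAACATTAAcaaaaaagtt
UQCRFS1: tgtatttgcaAACATTAAtgtgaaataa
COX14: acacctacagACATTAAataatttgct
NDUFB2, 1 of its 2 sites: ttttttcataAACATTAgtttttactt
COX15: taaggctgttAACATTAcaaggtcaga
ATP5PD: cacattctggACATTAAaaataataat
NDUFA4, 1 of its 3 sites: gtaattgaaaAACATTAAgcaactccaa
The first 2 hold the 8-letter run AACATTAA, and so does NDUFA4, which did not fall. The NDUFA8 site is at chr9:122144120-122144147 on the minus strand, that of UQCRFS1 at chr19:29207406-29207433 on the minus strand, that of COX14 at chr12:50120422-50120448 on the plus strand and that of NDUFA4 at chr7:10931970-10931997 on the minus strand.

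NDUFA8, an accessory subunit of complex I, had 7.19, 7.88 and 7.22 CPM in siBACH1, against 33.4, 25.2 and 35.5 CPM in siCont. No siBACH1 library came near the siCont libraries, and the 4.22-fold fall was the largest of any respiratory chain gene called in either experiment (log2 -2.08 ± 0.16, edgeR adjusted p = 2.72e-05). COX14, which aids the first steps of complex IV assembly around MT-CO1, had 11.1, 8.89 and 10.7 CPM in siBACH1, against 22.8, 21.8 and 21.4 CPM in siCont. It fell 2.15-fold with separate groups (log2 -1.11 ± 0.13, edgeR adjusted p = 0.000439). UQCRFS1, the Rieske iron-sulfur protein of complex III, had 21.9, 26.9 and 26.3 CPM in siBACH1, against 49.1, 43.0 and 53.5 CPM in siCont, a 1.94-fold fall, also with separate groups (log2 -0.95 ± 0.12, edgeR adjusted p = 0.000573). In the knockout the same 3 genes had log2 fold changes of 0.09 for NDUFA8, 0.30 for COX14 and 0.24 for UQCRFS1, none of them called.

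NDUFB2, an accessory subunit of complex I, had 85.8, 86.3 and 89.4 CPM in siBACH1, against 166, 112 and 144 CPM in siCont. Its siCont libraries were spread, with replicate 2 the lowest, but all lay above siBACH1 (log2 -0.69 ± 0.13, edgeR adjusted p = 0.00484). COX15, which makes the heme A of complex IV, had 73.8, 73.3 and 74.4 CPM in siBACH1, against 104, 108 and 104 CPM in siCont. Libraries within each group agreed closely and the groups were separate (log2 -0.51 ± 0.07, edgeR adjusted p = 0.00121). ATP5PD, a stalk subunit of ATP synthase, had 76.6, 83.5 and 72.1 CPM in siBACH1, against 101, 98.2 and 112 CPM in siCont, and fell by 0.42 on the log2 scale with separate groups (edgeR adjusted p = 0.00934); leaving out siBACH1 replicate 1 or 3 ended the call (edgeR adjusted p = 0.0514 and 0.0539).

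NDUFAF8 and COX20 fell and carry neither sequence. NDUFAF8, an assembly factor of complex I, had 9.50, 8.69 and 8.23 CPM in siBACH1, against 13.4, 14.3 and 13.1 CPM in siCont. COX20, which helps mature MT-CO2, had 29.2, 29.4 and 30.2 CPM in siBACH1, against 35.4, 47.8 and 37.9 CPM in siCont. Both had separate groups, at log2 fold changes of -0.63 ± 0.14 and -0.44 ± 0.12 (edgeR adjusted p = 0.0115 and 0.0287), and NDUFAF8 lost its call without siBACH1 replicate 3 (edgeR adjusted p = 0.0539), COX20 without any 1 siBACH1 library (edgeR adjusted p of 0.0849 to 0.104). The other falls were 0.24 to 0.36 on the log2 scale, in NDUFB1, NDUFS8, COX8A and the c-subunit genes ATP5MC1 and ATP5MC3. Of these only ATP5MC3 holds the sequences, with a site of each, which are not printed above. NDUFV1, the NADH-binding core subunit, was the only member called higher: it had 206, 209 and 201 CPM in siBACH1, against 175, 163 and 177 CPM in siCont, a log2 rise of 0.26 ± 0.07 (edgeR adjusted p = 0.0286). These 6 calls of smaller size were lost without any 1 siBACH1 library and without siCont replicate 1 or 3, at edgeR adjusted p of 0.0508 to 0.166.

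Of the 20 respiratory chain genes with either sequence in a 3′ UTR, 7 were called lower after siRNA, and of 80 tested genes with a 3′ UTR and neither sequence, 6 were. Across all genes the counts were 968 of 2956 with a sequence and 785 of 8703 without one. The other 13 members with a sequence had log2 fold changes of -0.19 (COX5A) to 0.29 (NDUFAF7) and were not called. NDUFA4, with the 8-letter run, had 329, 329.9 and 327 CPM in siBACH1, against 369, 338 and 319.9 CPM in siCont, overlapping groups and a log2 fold change of -0.06 ± 0.08. In the knockout 4 of the 20 were called higher and 1 lower (20% and 5%), beside 14% and 13.5% of all tested genes with a sequence.

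**Figure D4:**
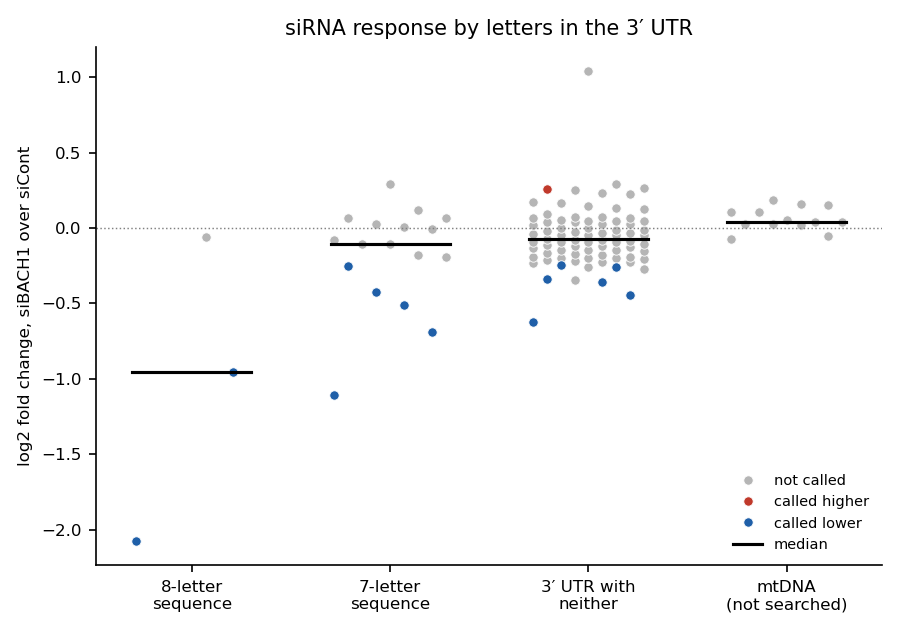
Log2 fold change after siRNA (y axis) of respiratory chain genes whose annotated 3′ UTR holds AACATTAA (3 genes), only a 7-letter sequence (17), neither (80), and of the 13 mitochondrial genes, whose UTRs were not searched; colours mark edgeR calls and bars are medians. The 4 largest falls are in the first 2 columns, and most genes with a 7-letter sequence lie with the genes that have none.

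After siRNA 0 of the 13 mitochondrially encoded genes were called by edgeR, and 0 by DESeq2 or limma-voom; 1 had an unadjusted edgeR p under 0.05, and all 13 log2 fold changes lay between -0.08 and 0.18. Without siCont replicate 2, edgeR called 1 higher and 1 lower. In the knockout 1 was called higher and 2 lower, or 7.69% and 15.4%. Of all tested genes 11.3% and 12.3% were called there, and 10.9% and 13.0% after siRNA. MT-ND1, a membrane subunit of complex I and the first protein gene after the rRNAs, had 226, 197 and 204 CPM in sgBACH1, against 292, 197 and 277 CPM in sgCont. MT-CO3, a membrane subunit of complex IV, had 690.2, 594 and 641 CPM in sgBACH1, against 871, 648 and 877 CPM in sgCont. In both genes sgCont replicate 2 fell among the sgBACH1 libraries and the groups overlapped; that library had the lowest share of mitochondrial mRNA of all, 0.441%. The log2 fold changes were -0.29 ± 0.10 for MT-ND1 and -0.32 ± 0.09 for MT-CO3 (edgeR adjusted p = 0.0448 and 0.0111). MT-ND4L, a small membrane subunit whose reading frame overlaps that of MT-ND4, had 243, 197 and 206 CPM in sgBACH1, against 194, 152 and 184 CPM in sgCont. Its groups were barely separate (log2 0.28 ± 0.09, edgeR adjusted p = 0.0282), and reads in the overlap cannot be assigned to 1 gene. Each of the 3 calls depended on single libraries: MT-ND1 was lost without any 1 of 5 libraries (all but sgCont replicate 2; edgeR adjusted p of 0.0685 to 0.288, with log2 fold changes over all alternatives of -0.45 to -0.18), MT-CO3 without sgBACH1 replicates 2 or 3 or sgCont replicates 1 or 3 (0.0563 to 0.107), and MT-ND4L without sgBACH1 replicates 1 or 3 or sgCont replicate 2 (0.059 to 0.253).

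The remaining mitochondrial genes were not called in the knockout. Those of complex I had log2 fold changes of -0.26 for MT-ND2, 0.05 for MT-ND3, 0.09 for MT-ND5, 0.13 for MT-ND6 and 0.18 for MT-ND4. MT-CYB, the only mitochondrial subunit of complex III, stood at 0.01 ± 0.10, and MT-CO1 and MT-CO2 at 0.08 and 0.16. In ATP synthase MT-ATP6 stood at 0.02 and MT-ATP8 at 0.33 ± 0.19, and the frames of these genes overlap. The 2 mitochondrial rRNAs were not called either, MT-RNR1 at -0.13 ± 0.08 and MT-RNR2 at 0.15 ± 0.07 in the knockout, although rRNA was depleted from the libraries and these levels depend on that step.

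**Figure D5:**
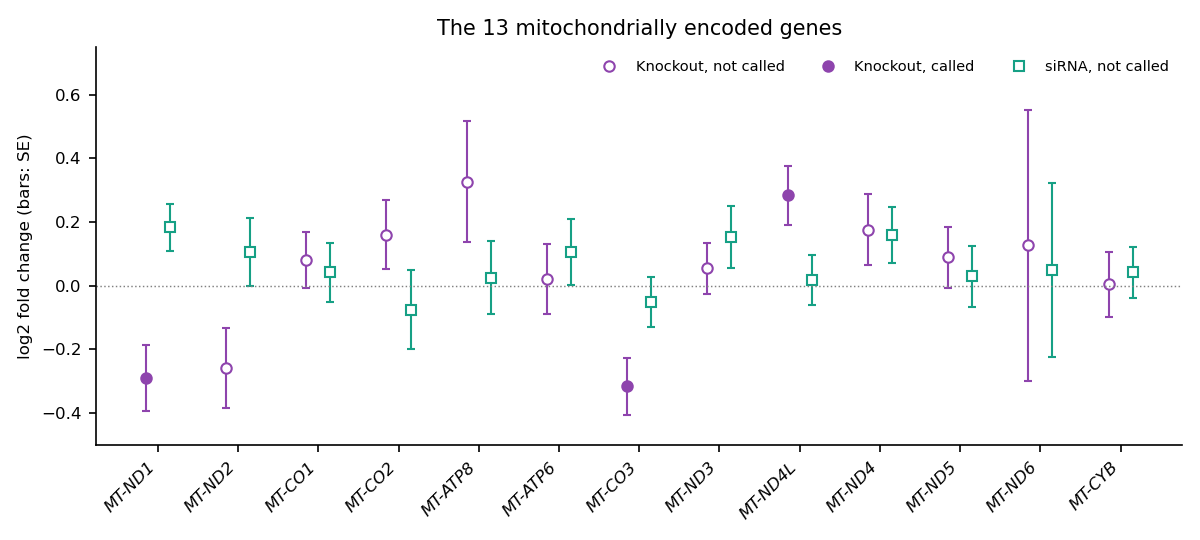
Log2 fold change (y axis, bars are SE) of the 13 mitochondrially encoded genes in their order along the mitochondrial genome, in the knockout (circles) and after siRNA (squares); filled symbols were called by edgeR. The knockout values run from -0.32 for MT-CO3 to 0.33 for MT-ATP8, and the siRNA values from -0.08 for MT-CO2 to 0.18 for MT-ND1.

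The experiments share no control libraries, and 3 genes were called in both. Of the members tested, 20.7% were called in the knockout and 12.4% after siRNA. The share of all genes called in both is not given here, so the 3 are a description only. NDUFS8 was lower in both, by 0.47 in the knockout and 0.26 after siRNA on the log2 scale. Its siRNA call was lost in 10 of 16 alternative runs. NDUFV1 was lower in the knockout and higher after siRNA, and NDUFB2 was higher in the knockout and lower after siRNA. The siRNA call of NDUFV1 was lost in 8 of 16 alternative runs, and the knockout call of NDUFB2 in 2 of 16. Across the 111 genes tested in both, the log2 fold changes had Pearson's r = -0.13 (0.12 across 13845 genes of all kinds), given as a description since genes are not independent replicates. The difference between the responses was tested directly, as the knockout change minus the siRNA change in 1 fit of all 12 libraries. It was called in 22 of 113 members, 15 higher in the knockout and 7 lower, where 13.0% and 10.6% of all 15644 genes were called.

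On the higher side, the difference was 2.17 ± 0.20 on the log2 scale for NDUFA8, from responses of 0.09 in the knockout and -2.08 after siRNA (edgeR adjusted p = 5.91e-07). COX14 differed by 1.40 ± 0.24, UQCRFS1 by 1.19 ± 0.16 and NDUFB2 by 0.98 ± 0.16 (edgeR adjusted p = 0.000342, 4.27e-05 and 0.000231), all genes with a 3′ UTR site described above. For the X-linked NDUFA1 and COX7B, which were not called after siRNA, the difference was 1.32 ± 0.21 and 1.23 ± 0.16 (edgeR adjusted p = 0.000163 and 3.77e-05). On the lower side were ATP5MC2, at -0.74 ± 0.12, NDUFV1 at -0.61 ± 0.12, and COX10, the enzyme before COX15 in heme A synthesis, at -0.61 ± 0.18 (edgeR adjusted p = 0.00026, 0.00129 and 0.0237). COX10 had 17.2, 21.2 and 18.0 CPM in sgBACH1, against 19.8, 25.1 and 25.0 CPM in sgCont. After siRNA it had 34.3, 34.0 and 34.7 CPM in siBACH1, against 26.0, 30.9 and 27.3 CPM in siCont. The groups overlapped in the knockout and were separate after siRNA, and COX10 was called in neither experiment alone. The call of its difference was lost without any 1 siBACH1 library, siCont replicate 1 or 3, sgBACH1 replicate 1 or 3 or sgCont replicate 3 (edgeR adjusted p of 0.0507 to 0.0654).

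The isoforms known from muscle, lung, testis or low oxygen were nearly silent in all groups. COX7A1, a heart and muscle isoform, had 0 counts in all 12 libraries. COX6A2, COX7B2 and COX8C, isoforms of muscle or testis, had at most 1 count in any library, and COX4I2, the lung isoform that replaces COX4I1, had at most 5. NDUFA4L2, induced by low oxygen in other cells, had 2 to 13 counts per library. For COX6B2, a testis isoform, sgBACH1 libraries held 21, 10 and 10 counts against 6, 1 and 0 for sgCont, too few to be tested, and siBACH1 libraries held 12, 18 and 13 against 13, 5 and 17 for siCont. The near-identical copies UQCRHL and ATP5MGL share reads with UQCRH and ATP5MG and are uncertain. Pseudogenes of the nuclear families (196 identifiers) held 0.861% as many counts as the members themselves, and nuclear copies of mitochondrial genes (389 identifiers) 1.09%. Among the 35 genes called in any of the 3 tests, 9 overlap an exon of another gene on their own strand, among them COX14, COX15, NDUFB2 and NDUFV1, and 10 on the opposite strand, among them NDUFA1, NDUFA3, UQCRFS1 and ATP5F1E, so their counts are uncertain.

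In the machinery around the chain, single genes were called and not whole lists. The counts below, here and in the lists that follow, stand beside the shares of all tested genes. Those were 11.3% higher and 12.3% lower in the knockout, and 10.9% and 13.0% after siRNA. Mitochondrial ribosomal proteins were called less often than all genes, at 14.9% against 23.5% in the knockout and 16% against 23.9% after siRNA. Of the mitochondrial ribosomal proteins, which translate the 13 mitochondrial mRNAs, 4 of 74 tested were higher and 7 lower in the knockout (median log2 fold change -0.006), and 1 of 75 was higher and 11 lower after siRNA (median -0.05). The largest called were -0.72 for MRPL28 and 0.73 for MRPS31 in the knockout, and -1.03 for MRPL35 and -0.76 for MRPS23 after siRNA. MRPL28 lies on chromosome 16 in a lowered stretch with a median of -0.43. TFAM, which packages and transcribes mitochondrial DNA, had 86.0, 83.5 and 89.0 CPM in sgBACH1, against 109, 124 and 106 CPM in sgCont. It fell with separate groups in the knockout (log2 -0.39 ± 0.09, edgeR adjusted p = 0.00186) and was not called after siRNA (0.13). NRF1, a regulator of nuclear respiratory genes, was called in neither, at -0.39 and -0.05 (edgeR adjusted p = 0.0685 and 0.796), nor was CYCS, cytochrome c itself, at 0.05 and 0.22. PPARGC1A, the coactivator of mitochondrial biogenesis, had 0 to 10 counts per library and was not tested.

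Among 16 genes of mitochondrial DNA replication and transcription, 3 were higher and 1 lower in the knockout, and 2 higher and 0 lower after siRNA. Of 12 tested biogenesis regulators 0 were called in the knockout, and 3 higher and 1 lower after siRNA, PPARGC1B, a relative of PPARGC1A, with the largest rise (0.62, edgeR adjusted p = 0.0227). In mitochondrial RNA processing 1 of 21 was higher and 1 lower in the knockout, and 1 higher and 3 lower after siRNA, including SLIRP, which stabilises mitochondrial mRNA, at -0.52 (edgeR adjusted p = 0.00572). Of 18 general mitochondrial mass markers 0 were higher and 3 lower in the knockout, and 1 higher (VDAC1, the outer membrane pore, 0.48) and 1 lower after siRNA. In the tricarboxylic acid cycle and pyruvate dehydrogenase list 3 of 26 were higher and 3 lower in the knockout, and 1 of 27 higher and 3 lower after siRNA, the 3 being PDK4, PDK1 and PDHB.

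For cytochrome c, heme A and coenzyme Q synthesis, 1 of 17 was higher and 3 lower in the knockout, and 1 higher and 2 lower after siRNA, where COQ3, a methyltransferase of coenzyme Q synthesis, fell by 1.04 on the log2 scale (edgeR adjusted p = 0.00251). Further assembly factors of complex I gave 0 of 11 higher and 1 lower in the knockout (TMEM186, -0.80, on chromosome 16 in a stretch with a median of -0.48) and 1 higher and 0 lower after siRNA. Those of complexes II to V gave 1 of 27 higher and 0 lower in the knockout and 0 higher and 2 lower after siRNA, with LYRM7, a chaperone of UQCRFS1, at -0.75 (edgeR adjusted p = 0.01). In the list of uncoupling, alternative and stress-linked genes, 3 of 13 were higher and 1 lower in the knockout. SQOR, which feeds electrons from sulfide to ubiquinone, had 2.60, 1.31 and 1.69 CPM in sgBACH1, against 7.45, 7.88 and 7.90 CPM in sgCont, a fall of 2.05 on the log2 scale with separate groups (edgeR adjusted p = 0.000104). SLC25A5, an X-linked carrier that exchanges ADP and ATP across the inner membrane, had 651, 672 and 644 CPM in sgBACH1, against 296, 308 and 322 CPM in sgCont, a rise of 1.09 ± 0.07 on the log2 scale (edgeR adjusted p = 9.82e-12) in a stretch with a median of 0.64. After siRNA 2 of these 13 were higher and 0 lower.

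Promoter windows of 250 bases before to 50 after the start (RefSeq, GRCh38.p14) were found for 86 of the 108 nuclear genes and searched on both strands for short sequences of known factors. The core of the element bound by MAF partners such as BACH1, TGANTCAGC, was in 0 of 86 windows and in 1.35% of 27305 windows of all genes. The looser antioxidant response core TGACNNNGC was in 11, or 12.8%, against 13.6% of all windows, and NDUFA1 and NDUFA3 were among the 11. The NRF1 letters GCATGCGC were in 19.8% of members against 3.27% of all windows, and the ETS and GABPA letters CCGGAAGT in 15.1% against 4.44%. These are counts of letters and not of bound sites.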

How the data were processed

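The deposited values are raw counts per gene for 12 AsPC-1 libraries, 6 to a table, which the authors made with HTSeq 0.9.1 and SAMtools on hg19, per the submitters' processing notes. Not given in the sources used here are the aligner, counting mode and use of strand; a mode that drops multiply mapped or ambiguous reads would lower genes with near-identical copies or overlaps. Of 57820 identifiers, 51996 took a current symbol and 342 a GENCODE 29 name. Counts were tested with edgeR 4.0.16 (R 4.3.3; TMM, filterByExpr with minimum count 10, two-sided quasi-likelihood test, Benjamini-Hochberg over all genes tested, called at adjusted p under 0.05), each experiment fitted alone and the difference in 1 fit of 12 libraries. SE is the log2 fold change over the square root of F. Each fit was checked on simulated data holding 200 genes of known fold change. Of 1.5-fold changes, 29.9% were recovered in the siRNA fit, 49.3% in the knockout and 10.4% in the difference. For 2-fold changes the shares were 62.7%, 64.2% and 35.8%. The 200 genes were drawn from all tested genes and are far fewer than were called in the data, such as 3481 after siRNA. The shares recovered in the data, or among respiratory chain genes, may therefore differ from these. A gene that was not called may still have changed. Genes of GENCODE 29 on GRCh38 gave positions, exon lengths and 3′ UTRs, never set against hg19. Alternatives used DESeq2 1.42.0, limma 3.58.1, other scalings and fewer libraries.

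The rule for the genes reads symbols alone, but it was set with earlier results of these data known. The same holds for the lists of other mitochondrial genes, the 3′ UTR letters and the chromosome stretches. Named genes are the 13 mitochondrial genes, the 8 largest called rises and falls per comparison whose mean log2 CPM reached 1, those called in both experiments or among the largest in the difference, the largest each way per complex, the tissue isoforms, and from each list up to 4 called genes and PPARGC1A, NRF1, TFAM and CYCS. Further members are named after their values were seen. Totals of 13099706 to 21478886 counts per library are sums over genes.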

Additional observations from a re-analysis of the deposited data

Results flagged for a closer look

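The response differed between the experiments in 22 respiratory chain genes, by edgeR's test of the knockout change minus the siRNA change (log2 scale, adjusted p under 0.05 over 15644 genes). They are 19.5% of the 113 members tested, less than the 23.6% of all genes tested. Of the 22 calls, 6 were lost in some alternative run, as given in the next section. In 15 genes the response was higher in the knockout. In complex I the difference was 2.17 for NDUFA8, 1.32 for NDUFA1, 0.98 for NDUFB2 and 0.77 for NDUFB3. In complex III it was 1.19 for UQCRFS1. Complex IV and its assembly factors gave 1.40 for COX14, 1.23 for COX7B, 0.51 for COX15, 0.51 for COX20, 0.50 for COX6C and 0.29 for COX8A. ATP synthase gave 0.82 for ATP5MF, 0.56 for ATP5F1E, 0.54 for ATP5PD and 0.38 for ATP5MC3. In 7 it was lower in the knockout, at -0.74 for ATP5MC2, -0.61 for NDUFV1, -0.61 for COX10, -0.52 for NDUFB5, -0.48 for MT-ND1, -0.48 for ATP5F1B and -0.42 for COX4I1.

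Outside the protein genes, the 22 mitochondrial tRNA genes took a mean of 0.0262% of counts in sgBACH1, against 0.0141% in sgCont, with ranges of 0.0215% to 0.0318% and 0.0131% to 0.0148% that do not overlap. Of 10 tested, 3 were called higher in sgBACH1 and 0 lower by edgeR, where 11.3% and 12.3% of all tested genes were called. After siRNA the share was 0.0667% to 0.114% in siBACH1 and 0.0825% to 0.169% in siCont, which overlap. Library fragments were size selected, and the part of that step was not tested.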

How the results depend on the processing

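With 3 libraries per group, calls in the siRNA experiment moved most. Leaving out each library in turn, 2002 to 5121 genes were called after siRNA (3481 with all), the highest without siCont replicate 2; 0 to 5 respiratory chain genes were higher (1 with all) and 5 to 23 lower (13 with all). In the knockout 6 to 14 were higher (12 with all). Without genes that have a 3′ UTR match, 1904 genes were called after siRNA, with 0 respiratory chain genes higher and 7 lower; that fit leaves out the members with a match, and NDUFV1, still tested, lost its call (edgeR adjusted p = 0.0846). Upper quartile scaling gave 3 higher after siRNA, 1 fit of 12 libraries gave 2, and no filter on low counts gave 0 higher and 8 lower; the cause was not tested. Without the moved chromosome stretches 5 genes were lower in the knockout (11 with all): 5 lie in those stretches and were not tested, and MT-ND1, still tested, lost its call (edgeR adjusted p = 0.0532). Same-numbered replicates did not deviate together (correlations of 0.020 to 0.057 after siRNA and -0.015 to 0.049 in the knockout), though every siRNA library correlated best with its own number; a fit with the replicate block gave 0 higher and 9 lower after siRNA, and 13 and 12 in the knockout. Some called genes kept their call in every alternative run that tested them. They were 12 of 23 in the knockout, 5 of 14 after siRNA (COX14, COX15, NDUFA8, NDUFB2 and UQCRFS1) and 16 of 22 in the difference. No called gene changed direction. In the difference, ATP5MC3, COX10, COX20, COX8A, MT-ND1 and NDUFB5 lost their call in some run. The fit without 3′ UTR matches did not test the 5 siRNA genes. Of the 12 knockout genes, the fit without the moved stretches did not test ATP5F1B, ATP5MC2, COX4I1, COX7B, NDUFA1, NDUFB10 and NDUFB5. Over all alternatives, 16 to 27 respiratory chain genes were called in the difference (22 with all). In the knockout 2500 to 3642 genes of all kinds were called (3407 with all). Class medians moved by less than their SD between libraries. For the mitochondrial genes that SD was 0.207 in the knockout and 0.083 after siRNA, larger than the medians of 0.080 and 0.042. For them this limit is too wide to show that the median is stable. For the nuclear subunits the SD was 0.040 in the knockout and 0.043 after siRNA, smaller in size than the medians of 0.065 and -0.088. Those medians kept their sign in every alternative.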
